A study of Mus musculus with 28 samples.

Results

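The 7 mammalian sirtuins, Sirt1 to Sirt7, were followed in the livers of mice that overexpress SIRT6 and of their wild-type (WT) littermates. The members were the rows of the deposited gene count table whose Ensembl identifier maps to these symbols. This gave 7 of 49585 features, and all 7 were among the 21583 genes that passed the filter on low counts and were tested. RNA sequencing had been done on whole liver, with 28 libraries. Each sex had 7 WT and 7 SIRT6-tg livers, which makes 4 groups of 7. All mice were C57BL/6JOlaHsd, 5 to 7 months old, on standard chow. Food was withheld for some hours before the livers were taken, so the levels below are those of fasted mice. SIRT6-tg mice carry an additional Sirt6 gene that is active throughout the body, and they came from 1 transgenic line, so that effects of its insertion cannot be told apart from those of the added gene. The breeding scheme of the study also included mice that overexpress SIRT1. The promoter of the transgene is not given in the sources used here, and reads of the transgene and of the resident Sirt6 gene fall in 1 row of the table. The labels do not say which mice were littermates of each other.

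Sirtuins are enzymes that use nicotinamide adenine dinucleotide (NAD+) to remove acetyl and longer acyl groups from lysines, and they release nicotinamide in doing so. They share a catalytic core that holds NAD+ between a nucleotide-binding fold and a zinc-binding module. SIRT1, SIRT6 and SIRT7 are mainly nuclear, SIRT2 is mainly cytoplasmic, and SIRT3, SIRT4 and SIRT5 are mitochondrial. In liver they are known for the control of glucose and lipid metabolism, ketone body and urea synthesis and DNA repair.

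A stretch of coding sequence that all of them have is the glycine-rich loop that contacts NAD+. Its 42 bases are shown because they let a reader see how far apart the members are at the base level, and thus how far the rows of the count table are separate measurements. The sequences were read from Gencode vM21 transcripts of GRCm38, 5′ to 3′ on the coding strand. Capitals mark bases identical to Sirt6, and in the Sirt6 line they mark the bases that all 7 members share.
Sirt6: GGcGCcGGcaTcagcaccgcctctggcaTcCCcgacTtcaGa
Sirt1: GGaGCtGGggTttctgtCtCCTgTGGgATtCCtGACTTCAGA
Sirt7: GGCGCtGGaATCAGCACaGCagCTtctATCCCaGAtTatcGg
Sirt2: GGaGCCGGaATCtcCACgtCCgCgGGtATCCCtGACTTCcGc
Sirt3: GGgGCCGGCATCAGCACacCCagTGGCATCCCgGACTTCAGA
Sirt4: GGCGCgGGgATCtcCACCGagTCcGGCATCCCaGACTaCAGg
Sirt5: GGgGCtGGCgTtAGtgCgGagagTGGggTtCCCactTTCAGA

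Of the 42 bases, 12 were identical in all 7 members. Sirt3 matched Sirt6 at 36 bases, Sirt4 at 32, Sirt2 at 30, Sirt7 at 28, Sirt1 at 27 and Sirt5 at 25. The Sirt6 stretch lies at chr10:81625898-81626530 on the minus strand, is cut by an intron, and spans exons 2 and 3. In Sirt4 it lies within exon 2 at chr5:115482896-115482937 on the minus strand, and in Sirt5 within exon 3 at chr13:43371888-43371929 on the plus strand. In Sirt3, the closest match, it spans exons 2 and 3 at chr7:140877882-140877997 on the minus strand.

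Over the whole transcripts, the longest identical run between Sirt6 and another member, on either strand, was 21 bases with Sirt4 and 19 with Sirt2. It was 16 bases with Sirt5 and with Sirt7, 14 with Sirt3 and 12 with Sirt1. The 2 longest runs are shown because they are the stretches at which a read of the abundant Sirt6 transcript comes closest to another member.
Sirt4 run: tttttgtttgtttgtttgttt
Sirt2 run: ctgcctctgcctcccgagt
Neither run lies in the loop, and the Sirt4 run is a simple repeat. How reads at these stretches were assigned was not tested.

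Total counts per library ranged from 18758863 to 35393069, with a median of 26012203. No 2 libraries of a group agreed within sampling noise, with a chi-square per gene of at least 13.15 over 84 pairs. Levels are given as CPM, the count relative to the library size after scaling between libraries by the trimmed mean of M-values (TMM), and differences as log2 fold changes with their standard error (SE) from edgeR's quasi-likelihood test. A gene was called when its p-value, adjusted by the Benjamini-Hochberg method over all 21583 genes, was under 0.05. Hepatocyte markers were at a summed 104505 to 208458 CPM over all libraries, and none of the 7 hepatocyte markers tested lacked counts. Since whole liver was sequenced, fewer cells of a type and less RNA per cell cannot be told apart in any of the differences below.

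Sirt6, a nuclear deacylase of histone H3 at glycolytic and ribosomal genes and at sites of DNA damage, was the targeted gene and checks the labels. In male WT livers it was measured at 2.65, 3.10, 2.76, 3.24, 3.01, 1.69 and 2.70 CPM. In male SIRT6-tg livers it was at 271, 255, 198, 358, 342, 290 and 252 CPM. Every library labelled SIRT6-tg was above every library labelled WT in males, which was so for 2.6% of all genes, and the mean was 281 ± 55.2 CPM (SD, n = 7) against 2.73 ± 0.511 CPM (SD, n = 7). This is a log2 fold change of 6.68 (SE 0.30, 95% interval 6.07 to 7.28, adjusted p = 1.78e-15), or 102-fold.

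Female WT livers had 6.22, 1.80, 2.90, 1.96, 2.94, 2.53 and 1.81 CPM of Sirt6. Female SIRT6-tg livers had 43.0, 30.7, 20.9, 16.4, 20.7, 50.2 and 29.6 CPM. The groups again did not overlap, with SIRT6-tg above WT as in 0.0417% of all genes, but the female transgenic libraries were all below the male ones, with a mean of 30.2 ± 12.5 CPM (SD, n = 7). The log2 fold change in females was 3.39 (SE 0.26, 95% interval 2.85 to 3.92, adjusted p = 3.33e-09), or 10.5-fold.

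The genotype difference was therefore larger in males, by 3.29 on the log2 scale (SE 0.35, 95% interval 2.57 to 4.01, adjusted p = 6.96e-06 for the interaction of genotype and sex). Among WT mice Sirt6 did not differ detectably between the sexes, with a log2 difference of -0.07 for male against female (95% interval -0.60 to 0.46, adjusted p = 0.908). Among SIRT6-tg mice the male level was 9.31-fold that of females (log2 3.22, SE 0.25, adjusted p = 8.96e-11). Counts of Sirt6 in WT libraries were low, 40 to 152 reads each. The coefficient of variation of its WT level was 18.7% in males and 53.8% in females. In female WT livers 1 library was at 6.22 CPM and the next at 2.94 CPM. The source of this spread was not tested.

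**Figure D1:**
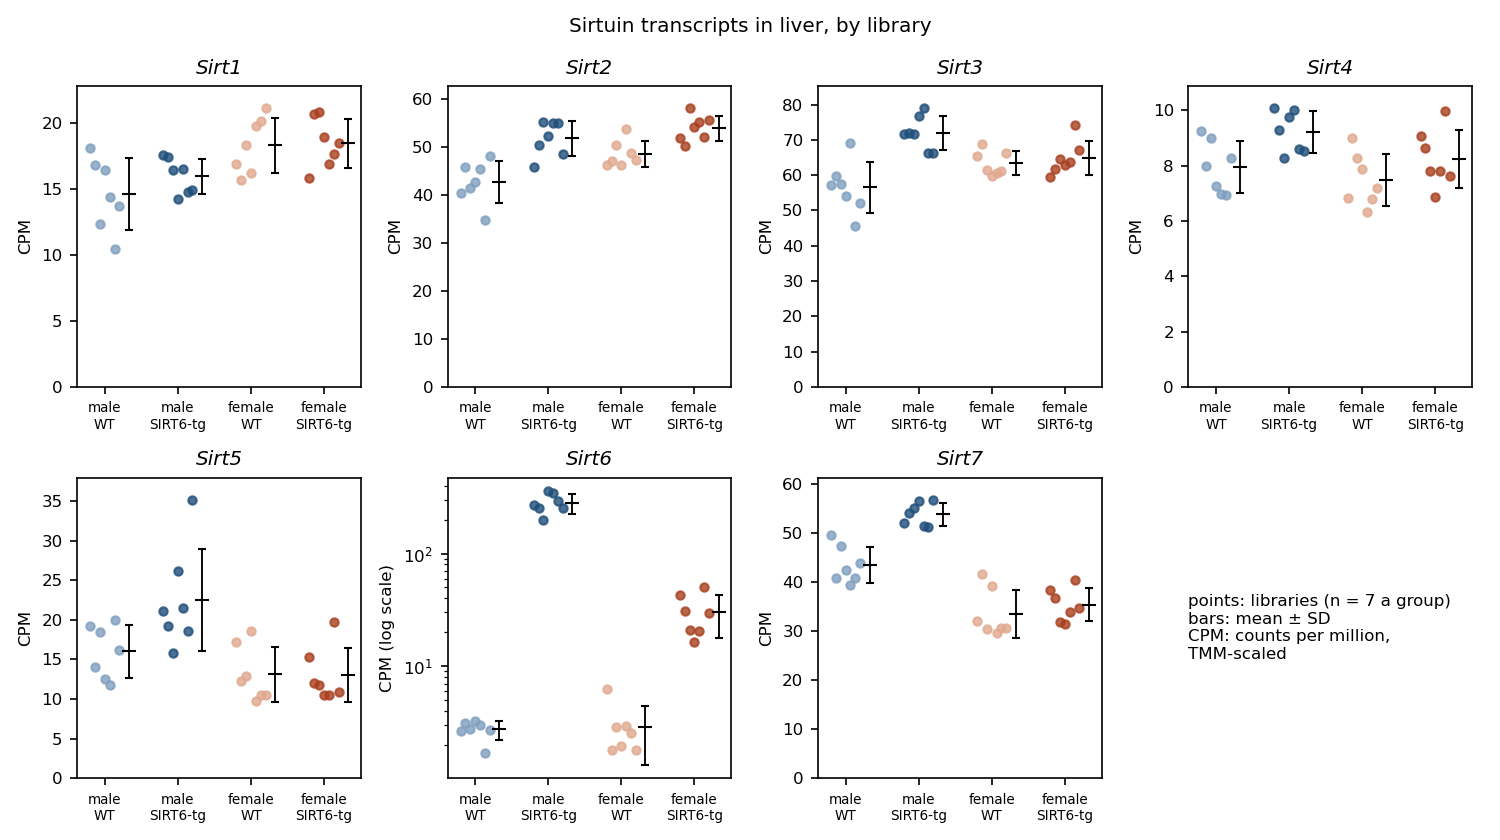
Level of each sirtuin in CPM (y axis, from 0; a log axis for Sirt6) in the 7 libraries of each group, with the mean and SD beside the points. Sirt6 separates the genotypes in both sexes, at 198 to 358 CPM in male and 16.4 to 50.2 CPM in female SIRT6-tg livers, while the other members stay within 6.33 to 78.9 CPM.

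For the other 6 members, the comparison asks whether their transcripts moved when Sirt6 was raised. In males Sirt2, Sirt3, Sirt5 and Sirt7 were called higher in SIRT6-tg livers, which with Sirt6 makes 5 of 7 members, and Sirt1 and Sirt4 were not called. Of all genes tested in males, 9.68% were called higher and 20.7% were called in either direction. The differences of the 4 members other than Sirt6 were between 1.21-fold and 1.40-fold. All 6 had positive log2 fold changes in males, as had 55.2% of all genes tested. Their median was 0.29, beside a median of 0.06 over all genes tested. In females no member other than Sirt6 was called by edgeR, beside 0.0278% of all genes. At an unadjusted p under 0.05 the count in females was 1 of the 6, beside 5.62% of all genes, and DESeq2 called none of them.

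Sirt7, a nuclear deacylase that acts at ribosomal DNA and at histone H3, showed the clearest separation in males. Its level in male WT livers was 49.6, 40.7, 47.2, 42.4, 39.5, 40.8 and 43.9 CPM. In male SIRT6-tg livers it ran from 51.1 to 56.7 CPM with a median of 54.1, and all 7 were above the highest WT library, beside the 2.6% of all genes given above. The log2 fold change was 0.31 (SE 0.08, adjusted p = 0.00868), or 1.24-fold. In females the groups overlapped, at 29.6 to 41.7 CPM in WT and 31.4 to 40.4 CPM in SIRT6-tg livers, with a log2 fold change of 0.08 (95% interval -0.09 to 0.25).

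Sirt3, the main mitochondrial deacetylase, was at 57.1, 59.8, 57.5, 54.1, 69.2, 45.6 and 52.1 CPM in male WT livers. The male SIRT6-tg livers had 71.7, 71.9, 71.8, 76.6, 78.9, 66.4 and 66.4 CPM. Of these, 5 were above every WT library, and the other 2 fell below only the WT library with 69.2 CPM. The log2 fold change was 0.35 (SE 0.08, adjusted p = 0.00148), or 1.27-fold, the smallest adjusted p after Sirt6. In females it was 0.03 (95% interval -0.13 to 0.19), with means of 63.4 ± 3.45 and 64.8 ± 4.77 CPM (SD, n = 7 each). The difference between the sexes in this effect was 0.32 on the log2 scale (95% interval 0.09 to 0.54) with an adjusted p of 0.0957.

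Sirt2, the cytoplasmic deacetylase of tubulin and of gluconeogenic enzymes, was at 34.8 to 48.1 CPM in male WT livers, with a median of 42.7. In male SIRT6-tg livers it was at 45.8 to 55.2 CPM with a median of 52.4, and 6 of 7 libraries were above the WT range. Its log2 fold change was 0.28 (SE 0.07, adjusted p = 0.0060). In females the log2 fold change was 0.15 (SE 0.07), 4 of 7 transgenic libraries were above the WT range, and the adjusted p was 0.887 (0.049 unadjusted).

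Sirt5, a mitochondrial enzyme that removes succinyl, malonyl and glutaryl groups, was at 19.3, 14.02, 18.5, 12.5, 11.8, 19.98 and 16.2 CPM in male WT and at 21.1, 19.3, 15.8, 26.2, 21.5, 18.7 and 35.2 CPM in male SIRT6-tg livers. The groups overlapped, with 4 transgenic libraries above the WT range, 1 of them far above the others. The log2 fold change of 0.49 (SE 0.18, 95% interval 0.13 to 0.85) had an adjusted p of 0.0477. This call was held in 11 of 37 alternative settings, in which its adjusted p ran from 1.54e-04 to 0.478. In females the means were 13.1 ± 3.48 CPM in WT and 12.99 ± 3.41 CPM in SIRT6-tg livers (SD, n = 7 each), and the log2 fold change was -0.02 (95% interval -0.38 to 0.35).

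Sirt1, a nuclear deacetylase of transcription factors and of PGC-1alpha, was at 10.4 to 18.1 CPM in male WT and 14.2 to 17.5 CPM in male SIRT6-tg livers, with a log2 fold change of 0.13 (95% interval -0.09 to 0.34, adjusted p = 0.431). In females it was at 15.7 to 21.1 and 15.8 to 20.8 CPM, and the log2 fold change was 0.01 (95% interval -0.20 to 0.23). By Dixon's test no library had a Sirt1 level apart from the others of its group, which bears on the SIRT1-overexpressing mice in the breeding scheme.

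Sirt4, a mitochondrial enzyme with lipoamidase and ADP-ribosylating activities, was at 6.33 to 10.1 CPM over all libraries. Its log2 fold change was 0.21 in males (95% interval 0.01 to 0.41, adjusted p = 0.138) and 0.14 in females (95% interval -0.06 to 0.34, adjusted p = 0.9998).

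The genotype difference of the 6 members other than Sirt6 was not shown to differ between the sexes. In the interaction test only Sirt6 was called among the 7, beside 5.05% of all genes. All 6 differences were positive with TMM, which means higher in males, as were those of 53.01% of all genes tested. With library size alone in place of TMM, the differences of Sirt1, Sirt2, Sirt4 and Sirt7 were negative, at -0.17, -0.16, -0.22 and -0.064. With TMM, the smallest unadjusted p was that of Sirt3 at 0.00742. For Sirt5 the difference was 0.50 (95% interval -0.01 to 1.01, adjusted p = 0.276) and for Sirt7 it was 0.23 (95% interval -0.02 to 0.47, adjusted p = 0.307).

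**Figure D2:**
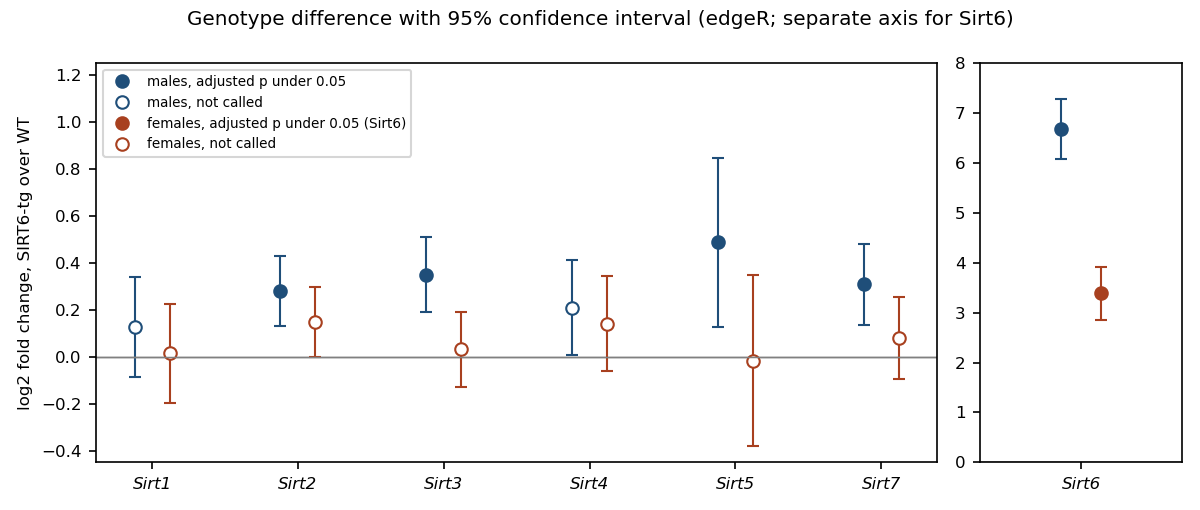
Log2 fold change of SIRT6-tg over WT (y axis) for each member with its 95% confidence interval, in males (blue) and females (red). Filled points have an adjusted p under 0.05 by edgeR, and Sirt6 has an axis of its own; in females it is the one filled point, at 3.39.

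The male calls rested on how the libraries were scaled. The median log2 fold change of all genes in males was 0.06 with TMM, 0.01 with the relative log expression method (RLE), -0.02 with upper-quartile scaling and -0.22 with library size alone. The number of members called was 5, 4, 3 and 1 in that order. With library size alone the log2 fold changes of Sirt1, Sirt2 and Sirt4 in males were -0.15, -0.002 and -0.07, so that their direction turned. A change of scaling shifts all genes of a library alike. Distances from the median of all genes therefore stay nearly the same by construction, and they do not test the calls. Sirt3 was 0.29 above that median under each of the 4 scalings, Sirt2 0.22, and Sirt7 between 0.24 and 0.25. Fitting each sex on its own left Sirt6 as the 1 member called in males.

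**Figure D3:**
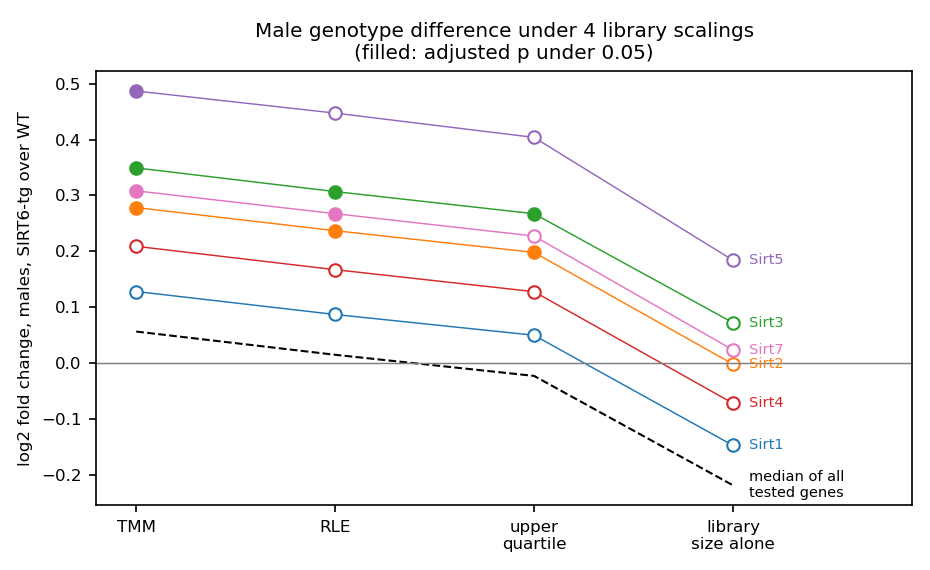
Male log2 fold change (y axis) of the 6 members other than Sirt6 under 4 ways of scaling libraries (x axis), with the median of all 21583 genes as a dashed line. All lines fall together, because a scaling shifts all genes of a library alike. Filled points, which mark an adjusted p under 0.05, go from 4 with TMM to 0 with library size alone.

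Markers of other cell types moved with genotype in males, beside these calls. All 8 T cell markers, all 8 macrophage markers and all 5 stellate cell markers were called lower in male SIRT6-tg livers. So were 3 of 4 B cell markers and 1 of 6 endothelial markers. Of all genes tested in males, 20.7% were called in either direction, so the endothelial count is near the background. The summed T cell markers were at 14.6 to 41.2 CPM in male WT and 4.73 to 7.43 CPM in male SIRT6-tg livers. For macrophage markers the ranges were 354 to 1183 and 305 to 512 CPM, and for stellate cell markers 283 to 524 and 220 to 319 CPM. The summed hepatocyte markers ran from 104505 to 143609 CPM in male WT and from 125286 to 173223 CPM in male SIRT6-tg livers, and 2 of the 7 tested were called higher. Of the other lists, 1 of 4 erythroid markers was called higher, and none of 4 cholangiocyte markers was called. For pancreas 1 of 4 and for adipose 1 of 3 markers were called lower, at low and uneven levels. Summed adipose markers ran from 0.0334 to 21.8 CPM in male WT and from 0.233 to 3.50 CPM in male SIRT6-tg livers. Their medians were 0.433 and 0.830 CPM. For pancreas markers the ranges were 0.169 to 3.15 and 0.311 to 0.536 CPM, with medians of 0.442 and 0.375. No marker found among the deposited genes lacked counts over all libraries together, and in females no marker was called. Their part in the higher level of Sirt2, Sirt3, Sirt5 and Sirt7 in males was not tested.

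Some members share bases with neighbouring genes, which bears on what their rows count. Of the annotated exon bases of Sirt3, 760 or 12.7% overlap another gene, 418 of them in Ric8a and 342 in Psmd13, both on the opposite strand. For Sirt7 the share was 3.46%, for Sirt1 1.22% and for Sirt2 0.834%, and Sirt4, Sirt5 and Sirt6 share none. The library kit does not mark strand as far as the sources used here tell, so reads from such stretches cannot be told apart. In males the log2 fold change was 0.29 for Psmd13, a proteasome subunit (adjusted p = 0.215), and 0.11 for Ric8a (adjusted p = 0.551). The overlapping partners of Sirt7 and Sirt2, Mafg and Nfkbib, were at 0.08 and -0.11 (adjusted p = 0.553 and 0.612).

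Of 12 annotated genes within 2000 bases of a member, 10 had counts, and 3 were called in males, beside 20.7% of all genes, so the count is near the background. Rinl, 308 bases from Sirt2, fell by 1.31 on the log2 scale (adjusted p = 1.64e-05). Pcyt2, an enzyme of phosphatidylethanolamine synthesis and 436 bases from Sirt7, rose by 0.47 (adjusted p = 4.56e-04). Ankrd24, the neighbour 743 bases from Sirt6, rose by 0.39 (adjusted p = 0.0197), from 3.34 ± 0.426 to 4.36 ± 0.384 CPM (SD, n = 7 each). BC025920, on the other side of Sirt6, was at -0.21 (adjusted p = 0.755). None of these neighbours was called in females.

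Levels of different genes were compared per kilobase of merged exon, as RPKM, which is the CPM divided by the exon length in kilobases. In WT livers 3 members formed a high tier and the resident Sirt6 was lowest. Male WT livers had a mean of 9.46 ± 1.21 RPKM for Sirt3, 8.48 ± 0.872 for Sirt2 and 8.44 ± 0.729 for Sirt7 (SD, n = 7). Sirt4 followed at 3.32 ± 0.391, Sirt1 at 2.74 ± 0.508, Sirt5 at 2.63 ± 0.545 and Sirt6 at 0.982 ± 0.184 RPKM (SD, n = 7). Neighbours in this order were compared within libraries by an exact two-sided sign-flip permutation test, whose smallest p with 7 libraries is 0.015625. Sirt7 was above Sirt4 and Sirt5 above Sirt6 in 7 of 7 male WT libraries (adjusted p = 0.03125 each). The other neighbours in this group, Sirt3 and Sirt2, Sirt2 and Sirt7, Sirt4 and Sirt1, and Sirt1 and Sirt5, were not separated beyond their spread.

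Female WT livers had the order Sirt3, Sirt2, Sirt7, Sirt1, Sirt4, Sirt5 and Sirt6, with 10.6 ± 0.577 RPKM for Sirt3 and 1.03 ± 0.556 RPKM for Sirt6 (SD, n = 7). Here Sirt2 was also above Sirt7 in 7 of 7 libraries, by 0.58 on the log2 scale (adjusted p = 0.03125). Sirt3 and Sirt2 were not separated (adjusted p = 0.075), nor were Sirt1 and Sirt4 (adjusted p = 0.353).

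In male SIRT6-tg livers Sirt6 stood first at 101 ± 19.8 RPKM (SD, n = 7), above Sirt3 at 12.05 ± 0.788 in 7 of 7 libraries. In female SIRT6-tg livers it reached 10.8 ± 4.48 RPKM (SD, n = 7) and was not separated from Sirt3 at 10.8 ± 0.799 or Sirt2 at 10.7 ± 0.525. The share of Sirt6 in the summed RPKM of the 7 members had a median of 2.67% in male WT and 69.7% in male SIRT6-tg livers. In females the medians were 2.59% and 22.1%. The summed RPKM of the other 6 members ranged from 30.6 to 37.7 in male WT and from 41.4 to 45.2 in male SIRT6-tg livers, and from 34.2 to 37.7 and 35.5 to 41.3 in the female groups. With the length of the longest transcript in place of merged exons, Sirt2 came before Sirt3 in all 4 groups and Sirt5 moved ahead of Sirt4 and Sirt1. Sirt6 in female SIRT6-tg livers was then at 15.97 ± 6.59 RPKM, below Sirt2 at 25.4 ± 1.249 and Sirt3 at 20.2 ± 1.49 (SD, n = 7), and was not separated from Sirt3 (exact sign-flip permutation test, adjusted p = 0.119). Then 20 of the 24 neighbouring pairs were separated, against 12 of 24 with merged exons, so the order within the tiers depends on the length used.

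**Figure D4:**
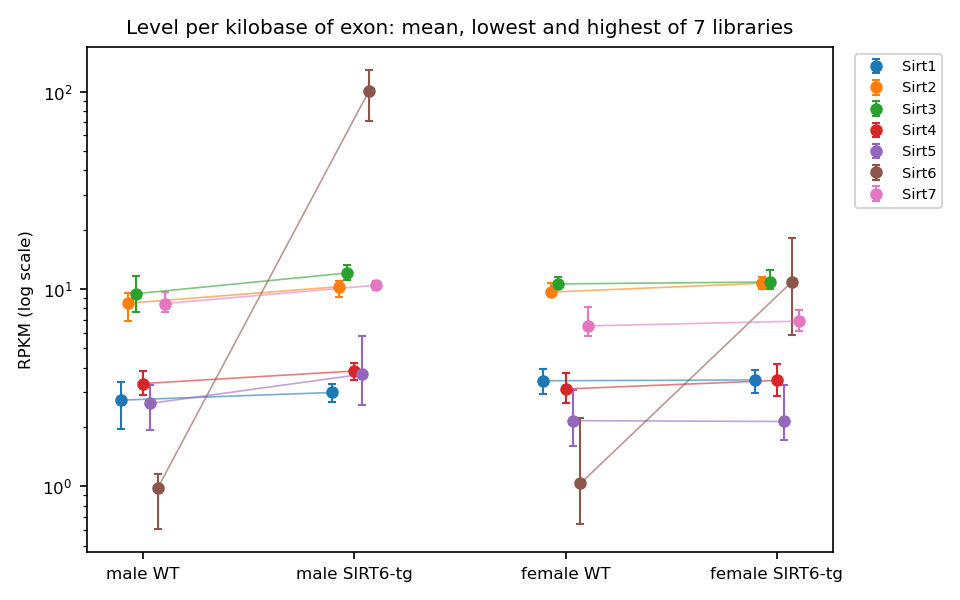
Level of each member per kilobase of merged exon in RPKM (log axis) in the 4 groups, as the mean with the lowest and highest of 7 libraries; lines join WT and SIRT6-tg of a sex. Sirt6 moves from last place, near 1 RPKM, to first in males and to the level of Sirt3 and Sirt2 in females; with the longest transcript length it lies below both in females.

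The sexes differed in other members too. In WT mice Sirt7 was higher in males, at 43.4 ± 3.75 against 33.5 ± 4.89 CPM (SD, n = 7), a log2 difference of 0.38 (SE 0.08, adjusted p = 0.00275). Sirt1 was lower in WT males, at 14.6 ± 2.71 against 18.3 ± 2.11 CPM (SD, n = 7), a log2 difference of -0.32 (SE 0.10, adjusted p = 0.0368). These were the 2 members called, beside 12.4% of all genes, and the Sirt1 call was held in 18 of 36 alternative settings while that of Sirt7 was held in 36 of 36. Among SIRT6-tg mice, Sirt7 was 1.52-fold higher in males (log2 0.61, SE 0.09, adjusted p = 5.33e-06) with every male library above every female one, beside 3.58% of all genes. Sirt5 was 1.73-fold higher in transgenic males (log2 0.79, SE 0.18, adjusted p = 0.0016). With Sirt6, this made 3 members called between transgenic males and females, beside 23.1% of all genes.

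Within the transgenic groups the amount of Sirt6 varied, which allows a comparison with the other members library by library. In the 7 female SIRT6-tg livers, Sirt6 and Sirt7 had a Pearson r of 0.97 (exact permutation p = 0.00179, adjusted p = 0.0155 over 12 relations) and a Spearman rho of 0.96 (exact permutation p = 0.00278, adjusted p = 0.0167). For Sirt5, r was 0.88 (exact permutation p = 0.00258, adjusted p = 0.0155) and rho 0.96 (exact permutation p = 0.00278, adjusted p = 0.0167). For Sirt4, r was 0.93 (exact permutation p = 0.00437, adjusted p = 0.0175) and rho 0.86 (exact permutation p = 0.0238, adjusted p = 0.0952). Without the 2 libraries farthest from the median of Sirt6, r was 0.92 for Sirt7, 0.82 for Sirt5 and 0.79 for Sirt4.

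No such relation was called in the 7 male SIRT6-tg livers, where r ran from -0.38 for Sirt1 to 0.70 for Sirt4 (exact permutation p = 0.0843 for Sirt4, adjusted p = 0.253), and rho for Sirt4 was 0.68 (exact permutation p = 0.110). In the WT groups, added after the data were examined, r of Sirt6 with Sirt7 was 0.04 in males and -0.41 in females (exact permutation p = 0.934 and 0.346), and rho was -0.39 and -0.57 (exact permutation p = 0.396 and 0.2). For Sirt5, r was -0.72 in WT males and 0.32 in WT females (exact permutation p = 0.0194 and 0.523). Its rho was -0.86 in WT males (exact permutation p = 0.0238) and 0 in WT females. For Sirt4, r was 0.21 and -0.47 (exact permutation p = 0.735 and 0.299), and rho was -0.11 and -0.61 (exact permutation p = 0.840 and 0.167). None of the 12 WT relations was called, with an adjusted p of 0.212 for Sirt5 in males.

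A pattern of the whole libraries moved with the female relation. The leading component of the libraries' deviations from their group means, computed over 11116 genes without the members, held 48.0% of the variance within groups. Its slopes had a correlation of 0.58 with log2 exon length across 11109 genes, which are not independent replicates. Libraries with a high score thus had relatively more of long genes. In female SIRT6-tg livers r with this score was -0.90 for Sirt6, -0.92 for Sirt5, -0.88 for Sirt4 and -0.86 for Sirt7 (exact permutation p = 0.00496, 0.0123, 0.00377 and 0.0127), each with an adjusted p of 0.0508 over 28 relations. The rho values were -0.93, -0.96, -0.86 and -0.86, with adjusted p of 0.0778 to 0.133, and r without the 2 farthest libraries was -0.79, -0.96, -0.86 and -0.66. Sirt5 had a negative r with it in every group, from -0.79 to -0.92. Sirt6 in male WT livers had an r of 0.96 (exact permutation p = 0.00734, adjusted p = 0.0508) and a rho of 0.71 (exact permutation p = 0.0881). The part of this component in the relations of Sirt6 with Sirt4, Sirt5 and Sirt7 was not tested.

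**Figure D5:**
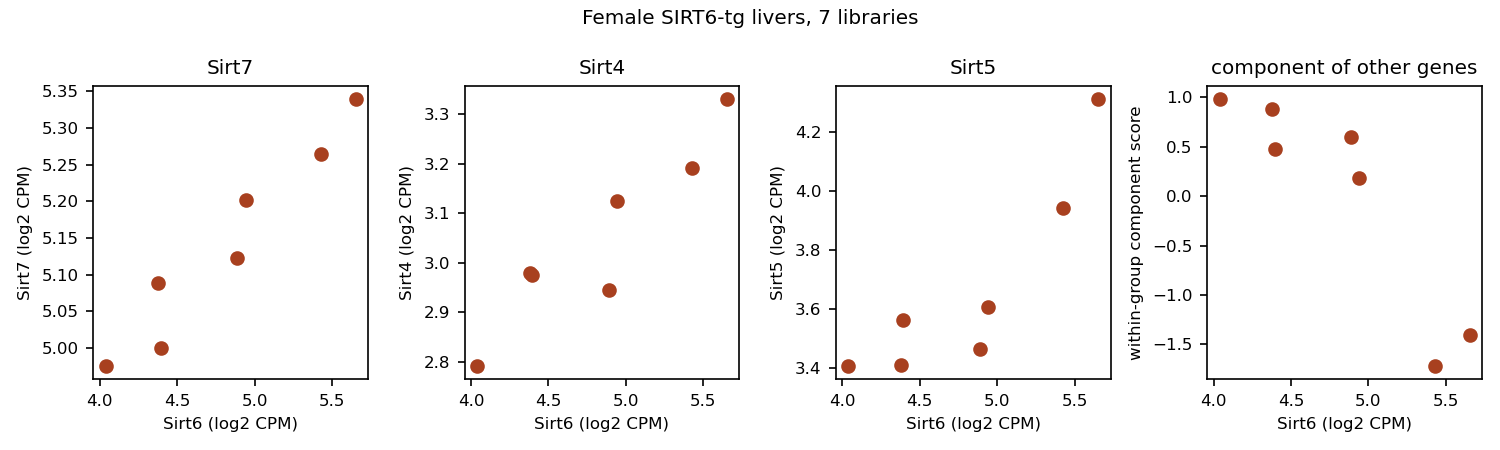
Sirt7, Sirt4 and Sirt5 (log2 CPM, y axes) and the within-group component score of the other genes against Sirt6 (log2 CPM, x axes) in the 7 female SIRT6-tg livers. All 3 members rise with Sirt6, at r of 0.97, 0.93 and 0.88, while the score falls, at r of -0.90; the 2 livers with most Sirt6 have the 2 lowest scores.

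With the component as a covariate, the members called in males were 5, as before, and the adjusted p of Sirt5 was 1.54e-04. In that fit 3 members were called in the interaction of genotype and sex, Sirt6, Sirt5 (0.49, adjusted p = 0.00914) and Sirt3 (0.32, adjusted p = 0.0130). This setting was added after the data were examined, and since the covariate comes from the same libraries, its p-values may be too small.

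Genes of the sirtuins' cofactor and substrates were counted by list, and in males each count stands beside 9.68% of all genes called higher and 20.7% called in either direction. The male counts of genes that rose depended on the scaling as the members' did. With library size alone, no gene of the lists below was called higher in males, and the medians of the lists for NAD+ synthesis, SIRT6 targets and SIRT1 partners fell below 0, at -0.07, -0.13 and -0.21, beside -0.22 over all genes.

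Synthesis and salvage of NAD+, the substrate of all sirtuins, were followed with a list of 12 genes. Of these, 11 were tested and Nmrk2 was below the filter. The list also held the NAD+ kinases Nadk and Nadk2 and the carrier Slc25a51, which do not make NAD+. In males 5 of the listed genes, Nadk2 among them, rose and none fell. The median log2 fold change was 0.22 over the list beside 0.06 over all genes. Naprt, which starts the route from nicotinic acid, rose by 0.57 (SE 0.17, adjusted p = 0.0175) from 114 to 169 CPM on average. Nmnat1 and Nmnat3, nuclear and mitochondrial enzymes of the last step of NAD+ salvage, rose by 0.33 and 0.49 (adjusted p = 0.00693 and 0.0358). Nadsyn1, the NAD+ synthetase, rose by 0.32 (adjusted p = 0.00754), and Nadk2, the mitochondrial NAD+ kinase, by 0.31 (adjusted p = 0.0210). Nampt, which salvages the nicotinamide that sirtuins release, was at -0.18 (SE 0.17, adjusted p = 0.502). With upper-quartile scaling none of the 11 was called in males, and with each sex fitted separately 2 were. In females none of the 11 was called.

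Among 7 genes for other NAD+ consumers and for the clearance of nicotinamide, none rose and 2 fell in males. Cd38, an NAD+ glycohydrolase, fell by 0.66 (SE 0.15, adjusted p = 0.00162), and its relative Bst1 fell by 2.01 (SE 0.31, adjusted p = 1.80e-05) from a mean of 1.04 to 0.259 CPM. Both are also expressed by immune cells, whose markers were lower in these livers, as given above. Parp1, which uses NAD+ in DNA repair, was at 0.17 (adjusted p = 0.249). In females none of the 7 was called.

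Known substrates of the mitochondrial sirtuins formed a list of 14 genes, of which 8 rose and 1 fell in males, with a median of 0.32 beside 0.06 over all genes. Acadl, a long-chain acyl-CoA dehydrogenase deacetylated by SIRT3, rose by 0.43 (SE 0.08, adjusted p = 3.48e-04), and Sod2, the mitochondrial superoxide dismutase, by 0.43 (SE 0.08, adjusted p = 4.25e-04). Acss1, the mitochondrial acetyl-CoA synthetase, fell by 1.14 (SE 0.23, adjusted p = 4.43e-04) and was low, at 0.740 CPM in male WT livers. Cps1, the urea cycle enzyme acted on by SIRT5, was at 0.23 (adjusted p = 0.320). With upper-quartile scaling 4 rose and 1 fell. None of the 14 was called in females.

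SIRT6 is described as a co-repressor of glycolytic genes, and a list of 12 of its chromatin targets and partners was counted. In males 4 rose and none fell, beside 9.68% of all genes called higher, with a median of 0.16 beside 0.06 over all genes. These were Pdk1, an inhibitory kinase of pyruvate dehydrogenase (0.58, SE 0.13, adjusted p = 0.00145), Tpi1 (0.39, SE 0.11, adjusted p = 0.0119), Ldha (0.44, SE 0.14, adjusted p = 0.0287) and Pfkm (0.29, SE 0.09, adjusted p = 0.0273), which encode glycolytic enzymes. With upper-quartile scaling 1 of the 12 was called, and with RLE or with each sex fitted separately 2 were. Of 11 partners and substrates of SIRT1, Srebf1, a transcription factor of lipid synthesis, rose by 0.66 (SE 0.15, adjusted p = 0.00227). Hic1, a transcriptional repressor that binds SIRT1, fell by 0.60 (SE 0.15, adjusted p = 0.00322). The other 9 were not called, and in females neither list had a called gene.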

How the data were processed

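Livers of 28 mice, 7 a group, had been sequenced as total RNA with NEBNext Ultra libraries. The authors deposited raw read counts per gene; the submitters' processing notes name STAR 2.5.0a, HTSeq and mm10, and the counting's strand setting is not given in the sources used here. No column was left unmapped (0). Symbols, coordinates and exon lengths came from Gencode vM21 of GRCm38, found for 49326 of 49585 features; 43749 had the same identifier version, and for the other features the lengths may differ from those used in counting.

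Genes with a mean of at least 0.5 DESeq2-normalized counts were kept (21583). TMM-scaled counts were tested with edgeR 4.0.16 in R 4.3.3 (robust quasi-likelihood F-test, all 28 libraries in 1 fit, no block, Benjamini-Hochberg over all genes), which was tested on simulated data. CPM for correlations were log2-transformed with a prior count of 2. Alternatives were RLE, upper-quartile and no scaling factors, 2 other filters, DESeq2 1.42.0, each sex alone, a replicate block, each library left out, the longest transcript length and a prior count of 0.5. The labels do not tie replicates to separate litters, so p-values measure the spread between these samples. Replicate numbers did not pair the samples.

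Total counts of 18758863 to 35393069 per library limit low levels; these limits cover counting error only. Named genes were the 7 members, genes within 2000 bases, up to 4 of each list with the lowest adjusted p in males if called, list genes called in females, 1 or 2 of a list that stand for a role, and the 3 genes most like each member. Nmnat3 was named after its values were seen. A gene that the rule names among the mitochondrial substrates is not reported here. The members and lists were chosen with earlier results of these data known. Protein sequences were not analysed here.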

Additional observations from a re-analysis of the deposited data

Results flagged for a closer look

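Chance alone flags about 1 in 20 groups for a library that stands apart, which is 1.4 of the 28 groups of 7 tested here, and 2 were flagged. In male WT livers, replicate 6 had the lowest Sirt6 level, 1.69 CPM, with the next at 2.65 CPM. In female WT livers, replicate 1 had the highest, 6.22 CPM, with the next at 2.94 CPM. The third flagged result is the larger genotype difference of Sirt6 in males, by 3.29 on the log2 scale (adjusted p = 6.96e-06 in edgeR's interaction test); it was called in all 36 alternatives, at 2.98 to 3.45.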

How the results depend on the processing

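Sirt6 was called in both sexes in all 37 alternatives, at 6.39 to 6.75 in males and 3.21 to 3.68 in females on the log2 scale. The count of members called in males, 5, was 3 with upper-quartile scaling, 1 with library size alone and 1 with each sex fitted separately; the cause was not tested. Sirt2 and Sirt3 were called in males in 35 of 37 alternatives and Sirt7 in 34. The count for the interaction, 1, was 3 with the component as a covariate and 2 without male WT replicate 5, which added Sirt3. The count between WT males and females, 2, was 1 with no filter beyond a count above 0, 1 with the replicate block and 4 with the component as a covariate; leaving out 1 library gave 1 to 2, with Sirt1 lost in 15 of 28. Of the neighbouring levels, 20 pairs in place of 12 were separated with the longest transcript length.

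Directions turned as follows on the log2 scale, with the call of Sirt2 in males, Hdac2 and Hdac11 lost and no reversed value called. With library size alone, the male values of Sirt1, Sirt2 and Sirt4 were -0.15, -0.0020 and -0.072; the interaction values of Sirt1, Sirt2, Sirt4 and Sirt7 were -0.17, -0.16, -0.22 and -0.064; and between WT males and females Sirt2, Sirt3 and Sirt6 were at 0.0050, 0.022 and 0.14. The interaction of Sirt4 was -0.0011 with upper-quartile scaling. Among the other genes named, library size alone turned the male values of Parp1, Cps1, Hdac2, Hdac11, Psmd13, Ric8a and Mafg to -0.11, -0.038, -0.069, -0.011, -0.015, -0.17 and -0.20, and Mafg was at -0.0024 with each sex fitted separately. When 1 library was left out, the values spanned 0 for Sirt1 in females (-0.025 to 0.049), Sirt3 in females (-0.0061 to 0.050), Sirt5 in females (-0.15 to 0.085) and Sirt6 between WT males and females (-0.15 to 0.24).

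Same-numbered libraries of different groups had correlations of -0.70 to 0.59 over 42 pairs, 19 of them over 0.1, and 3 correlated best with their own number. With the replicate block the WT difference of Sirt6 between the sexes was 0.0017, and the members called were 5 in males and 1 in females. The depth of WT libraries, 40 to 152 reads of Sirt6, limits the precision of its baseline.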

Other observations

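The deacetylases that use zinc in place of NAD+ remove the same acetyl groups by hydrolysis. Of 11 tested in males, Hdac2 and Hdac11 rose by 0.21 and 0.27 on the log2 scale (edgeR, adjusted p = 0.0227 and 0.0268). Hdac7 and Hdac9, class IIa members also expressed outside hepatocytes, fell by 0.55 and 0.68 (adjusted p = 3.34e-04 and 0.0279). The other 7 were not called, and in females none was. With RLE, upper-quartile or no scaling factors, with no filter beyond a count above 0, or with each sex fitted separately, none of the 11 rose in males, and 0 to 3 rose when 1 library was left out. Of 7 genes for SIRT7 partners and ribosomal RNA transcription, none was called by edgeR in males, with a median of 0.18 beside 0.06 over all genes, or in females.

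Likeness was measured as Pearson's r of deviations from the group mean over 28 libraries among 11116 genes. Sirt5 was most like Oxld1, Nelfe and Pstk (r of 0.94 each). Sirt1 was most like Acadsb (0.88), Prps2 (0.87) and Cep120 (0.87), Sirt2 like Fads2, Eef2 and Gsk3a (0.77 to 0.78), and Sirt3 like Nr1i3, Dclk3 and Ces1d (0.81 to 0.83). For Sirt4 the genes were Ppm1m, Six5 and Rbck1 (0.79 to 0.85), for Sirt6 Gsto1, Wdr55 and Dusp28 (0.70 to 0.76), and for Sirt7 Rab1b, Fbxo4 and Tsr3 (0.79 to 0.81). The libraries share the component described above, and its part in these values was not tested.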
